A study of Homo sapiens with 1 sample.

Results

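The miR-148/miR-152 and miR-181 families were examined on a miRNA array hybridized with RNA of DLD-1, a line of human colorectal carcinoma cells that carried the pLVX-NC control plasmid here. Their members were chosen by name, with no threshold on a measured value but with earlier results of these data known, as the human miRNA entries hsa-miR-148a-3p, hsa-miR-148b-3p, hsa-miR-152-3p, hsa-miR-181a-5p, hsa-miR-181b-5p, hsa-miR-181c-5p and hsa-miR-181d-5p, which are 7 of the 2549 human miRNAs on the array. The study asked how circLONP2, a circular RNA of the LONP2 gene, alters miRNA levels, and this array is its empty-vector control. Arrays of cells with more or less circLONP2 were not analysed here, so each value below describes 1 array of 1 condition, with no replicate and no test.

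A mature miRNA is cut from 1 arm of a hairpin RNA and guides Argonaute proteins to messenger RNAs, mostly by pairing through bases 2 to 8 from its 5′ end, called the seed. miRNAs with the same seed form a family and are predicted to share many targets. The miR-148/miR-152 family is best known for repressing the DNA methyltransferase DNMT1 and is often reduced in tumours of the digestive tract. The miR-181 family is known above all for its role in lymphocyte development, where miR-181a tunes the response of the T cell receptor, and has also been studied in many carcinomas.

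The mature sequences are shown because the members of a family differ by few bases, while their brightness on the array differed. They are RefSeq sequences on build GRCh38.p14, written 5′ to 3′ with the seed in capitals. All 7 members were found there, and the seed was identical within each family.
hsa-miR-148a-3p: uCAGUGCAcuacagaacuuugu
hsa-miR-148b-3p: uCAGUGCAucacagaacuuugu
hsa-miR-152-3p: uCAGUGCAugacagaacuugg
hsa-miR-181a-5p: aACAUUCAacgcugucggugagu
hsa-miR-181b-5p: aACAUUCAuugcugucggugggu
hsa-miR-181c-5p: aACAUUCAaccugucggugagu
hsa-miR-181d-5p: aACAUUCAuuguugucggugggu

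Outside the seed, with positions counted from 1 at the 5′ end of the first-named miRNA, miR-148a-3p and miR-148b-3p differ by the substitutions C9U and U10C. miR-152-3p is 21 bases long against 22 for the other two, and is 4 single-base changes away from miR-148a-3p and 3 from miR-148b-3p, insertions and deletions included. miR-181a-5p and miR-181b-5p differ by A9U, C10U and A21G, and miR-181b-5p and miR-181d-5p by C12U alone. miR-181c-5p is 22 bases long and is 1 single-base change, a deletion, away from the 23 bases of miR-181a-5p.

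The 7 miRNAs come from 9 hairpin genes. miR-181a-5p and miR-181b-5p are each encoded at 2 loci, so their array signal is a sum over both. MIR181A1 (chr1:198859044-198859153, minus strand) lies 61 bases from MIR181B1 (chr1:198858873-198858982, minus strand), inside the annotated span of the long non-coding RNA gene MIR181A1HG. MIR181A2 (chr9:124692442-124692551, plus strand) and MIR181B2 (chr9:124693710-124693798, plus strand) lie 1158 bases apart within the spans of MIR181A2HG and NR6A1, of which NR6A1 runs on the minus strand. MIR181C (chr19:13874699-13874808) and MIR181D (chr19:13874875-13875011) are 66 bases apart on the plus strand, within the span of NANOS3. The members of the other family are not clustered. MIR148A (chr7:25949919-25949986, minus strand) lies within LOC105375199, MIR148B (chr12:54337216-54337314, plus strand) within COPZ1, and MIR152 (chr17:48037161-48037247, minus strand) within COPZ2. COPZ1 and COPZ2 encode related subunits of the coatomer coat, and each has the same strand as its miRNA. Whether a hairpin falls in an exon or an intron was not examined here.

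Most of the miR-181 members, but not all, were far brighter than the miR-148/miR-152 members. 3 of the 4 miR-181 members, miR-181a-5p, miR-181b-5p and miR-181d-5p, were bright in every spot. By contrast, miR-181c-5p and all 3 miR-148/miR-152 members were dim, with mean brightness from 6.25 to 16.9. The negative control spots had a median of -2.35 and a 99th percentile of 12.5. The brightness of a spot is the Cy3 signal in scanner units after the software subtracted the local background, and each member had 20 spots, 10 for each of 2 probes. Of the 80 spots of the miR-181 members, 65 were marked by the software as well above background, against 1 of the 60 spots of the miR-148/miR-152 members. After spots marked as outliers were left out, the miR-148/miR-152 spots ranged from 1.37 to 19.3 with a median of 8.56, and the miR-181 spots from 10.6 to 464.1 with a median of 237.3. Different probes bind with different strength, so these values order the members by signal and not by the number of molecules.

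**Figure D1:**
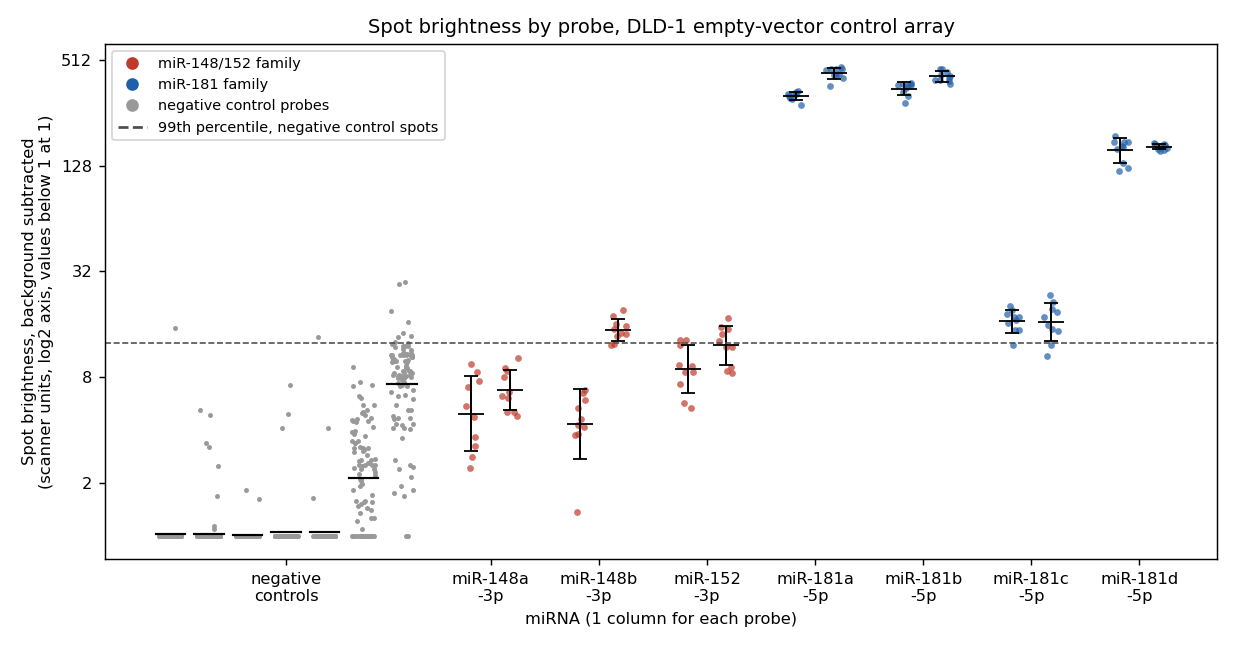
Background-subtracted brightness of each spot (log2 axis, scanner units, values below 1 drawn at 1) for the 7 negative control probes and for both probes of each family member, with outlier-marked miRNA spots left out. Long ticks are means of log2 values, bars on the members are 1 SD between spots, and the dashed line is at 12.5, the 99th percentile over negative control spots. The spots of miR-181a-5p, miR-181b-5p and miR-181d-5p lie between 119.0 and 464.1, while miR-181c-5p and the miR-148/miR-152 members reach at most 23.5.

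The software flagged 6 of the 7 members as detected, all but miR-148a-3p, and on the whole array 56.8% of human miRNAs carried this flag. The count fell to 3 members, miR-181a-5p, miR-181b-5p and miR-181d-5p, when at least 0.5 of the spots of a probe had to be well above background, a criterion met by 49.9% of human miRNAs. The same 3 had a probe that reached at least 2 times 12.5, the level below which 99% of negative control spots lay, as did 44.6% of human miRNAs. With counts this small, the shares of the members cannot be set apart from those of the array. This level, the 99th percentile, was set largely by 1 negative control probe, which held 8 of the 10 negative control spots above it and had a median brightness of 8.62, against medians of -3.18 to 2.27 for the other 6 probes. Without that probe the 99th percentile was 5.58, and 6 members, all but miR-148a-3p, had a probe at least 2-fold above it. The share of all human miRNAs at this lower level is not given here, so this count is not set against the array.

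The spots of miR-181a-5p averaged 378.2 ± 61.9 (SD, n = 19 spots), and its lowest, median and highest spots were 285.2, 362.5 and 464.1. miR-181b-5p had a mean of 382.6 ± 41.7 (SD, n = 20 spots), with 289.9, 376.0 and 454.6 in the same order. The spots of the pair overlapped almost completely. On the log2 scale, averaged over spots and then probes, miR-181a-5p was lower than miR-181b-5p by 0.038 with a standard error of 0.033 from the spots, so the difference was close to the error within the array. The total signal, the software's sum over the probes of a miRNA, was 138.0 with an error of 9.93 for miR-181a-5p and 140.7 with an error of 10.1 for miR-181b-5p. These values placed them at the 84.3 and 84.9 percentile of detected human miRNAs, whose median total signal was 23.1.

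The spots of miR-181d-5p averaged 161.2 ± 17.9 (SD, n = 19 spots), with a lowest spot of 119.0, a median of 166.3 and a highest of 189.4. All 20 of its spots were well above background, and none reached the lowest spot of miR-181a-5p or miR-181b-5p. Its sequence is 1 substitution away from that of miR-181b-5p, and its log2 signal was 1.25 below that of miR-181b-5p (standard error 0.045 from the spots). Its total signal was 59.4 with an error of 4.33, at the 70.7 percentile of detected miRNAs. Whether part of its signal is miR-181b-5p bound to its probes was not tested.

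The spots of miR-181c-5p averaged 16.9 ± 3.23 (SD, n = 20 spots), with a lowest spot of 10.6, a median of 17.2 and a highest of 23.5. Only 5 of its 20 spots were well above background, although all 20 were positive and significant by the software's weaker criterion and 17 exceeded 12.5. The weaker criterion was also met by 88 of the 100 spots of the negative control probe of highest median. No spot of miR-181c-5p reached the lowest spot of any other miR-181 member. The log2 signal of miR-181a-5p, a single base longer, was 4.48 higher (standard error 0.069 from the spots). Thus the probes of miR-181c-5p gave little signal in a sample where probes of a miRNA 1 base different were bright. Its total signal was 6.20 with an error of 1.07, at the 16.9 percentile of detected miRNAs.

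**Figure D2:**
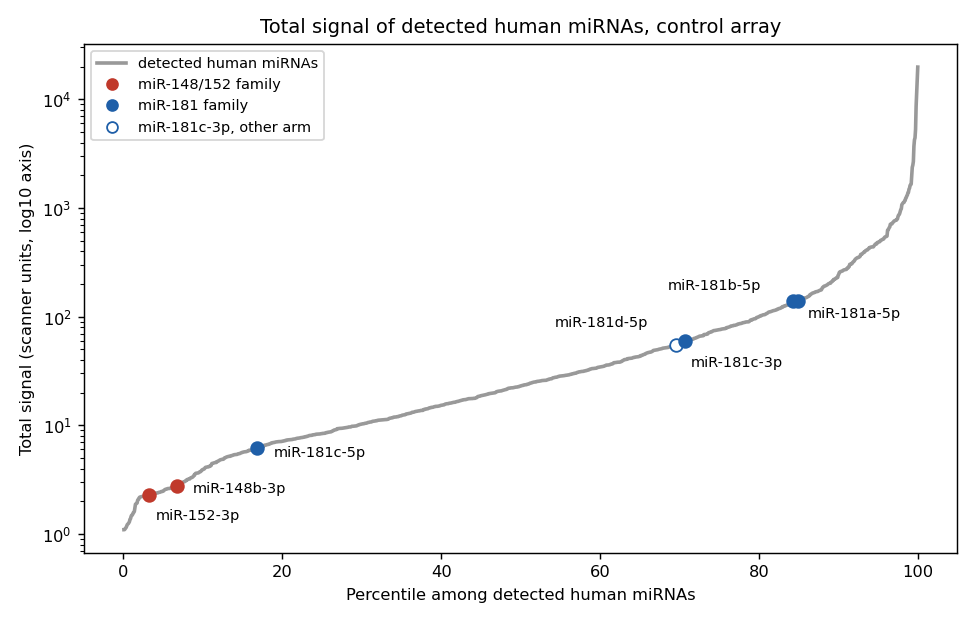
Total signal (log10 axis, scanner units, summed over probes by the software) of the 1448 detected human miRNAs against their percentile on the control array. Filled points are the 6 detected family members and the open point is miR-181c-3p, the other arm of the miR-181c hairpin. miR-152-3p and miR-148b-3p lie below the 10th percentile and miR-181a-5p and miR-181b-5p above the 80th, with miR-181d-5p and miR-181c-3p side by side near the 70th.

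In the other family, the spots of miR-152-3p averaged 10.9 ± 3.30 (SD, n = 20 spots), which ran from 5.35 through a median of 10.6 to 17.4. It carried the detection flag although 0 of its 20 spots were well above background. miR-148b-3p had a mean of 9.85 ± 5.66 (SD, n = 20 spots), with a lowest spot of 1.37, a median of 9.49 and a highest of 19.3, and 1 spot well above background. miR-148a-3p had a mean of 6.25 ± 2.30 (SD, n = 20 spots), with 2.44, 6.19 and 10.2 in the same order. It was not detected, and 0 of its spots passed 12.5, against 8 of miR-148b-3p and 7 of miR-152-3p. The spot ranges of all 3 overlapped each other and those of the brightest negative control probe, which ran from -1.38 to 27.9. The total signals were 2.76 with an error of 0.746 for miR-148b-3p and 2.30 with an error of 0.731 for miR-152-3p, at the 6.70 and 3.18 percentile of detected miRNAs. For miR-148a-3p the software gave 0.1, its value for any miRNA not detected, so no ratio to it is given. The log2 signal of miR-152-3p exceeded that of miR-148a-3p by 0.84 (standard error 0.16 from the spots), the widest gap in the family. Of their 20 spots each, 0 were well above background, while 20 of miR-152-3p and 16 of miR-148a-3p were positive and significant. So were 88 of the 100 spots of the brightest negative control probe.

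With the 75th percentile over detected probes, a brightness of 248.8, set to 0, the log2 signals were 0.61 for miR-181b-5p, 0.57 for miR-181a-5p and -0.63 for miR-181d-5p. They were -3.91 for miR-181c-5p, -4.58 for miR-152-3p, -4.95 for miR-148b-3p and -5.42 for miR-148a-3p. The neighbours miR-181b-5p and miR-181a-5p differed by less than 2 standard errors. The order of miR-152-3p and miR-148b-3p was not settled either, since their single spots overlapped and miR-148b-3p was the higher by its brightest probe (-4.06 against -4.36) and by its total signal. The spots of miR-148b-3p and miR-148a-3p overlapped too, and their order rested on the brighter miR-148b-3p probe. The dimmer one, with mean brightness 4.66, lay below both miR-148a-3p probes (5.51 and 6.99). Within a family the largest gap was 4.52 for miR-181 (standard error 0.071) and 0.84 for miR-148/miR-152. The sign for miR-181d-5p turned to 1.16 with a percentile over every human miRNA probe, detected or not.

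The probes of a member did not always give the same brightness. For 4 of the 7 members the brighter and the dimmer probe differed by more than 2 standard errors of the spots. The widest gap was that of miR-148b-3p, whose probes had mean brightness 4.66 ± 1.59 and 15.0 ± 2.27 (SD, n = 10 spots each), and which stood 1.79 apart on the log2 scale (standard error 0.22). The dimmer one lay below 12.5, the 99th percentile of negative control spots, and only the brighter one entered the total signal. For miR-152-3p too, with probe means of 9.25 and 12.5, the total held only the brighter probe, and adding the other would raise it 1.74-fold. The probes of miR-181a-5p had means of 320.0 and 430.5 and those of miR-181b-5p 352.1 and 413.2, log2 differences of 0.43 and 0.23. The pairs of probes for miR-181c-5p (16.8 and 16.9), miR-181d-5p (158.1 and 164.7) and miR-148a-3p (5.51 and 6.99) differed by less than 2 standard errors. For all 4 miR-181 members both probes entered the total.

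Position on the array moved the values of the bright members little. Over rows 1 to 192 and rows 193 to 384, the mean brightness was 377.3 and 379.0 for miR-181a-5p, 373.1 and 396.9 for miR-181b-5p, and 155.9 and 164.3 for miR-181d-5p. For the dim members it was 17.3 and 16.3 for miR-181c-5p, 10.0 and 11.6 for miR-152-3p, 9.88 and 9.81 for miR-148b-3p, and 6.42 and 6.07 for miR-148a-3p. Each of these differences was smaller than the SD between spots of that miRNA. That SD takes in the gap between the probes, so it is a loose yardstick, and single probes were not compared by position.

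Each hairpin also has an opposite arm, and 9 such arms were on the array, of which 5 were detected, against 56.8% of human miRNAs. In the hairpins of miR-181a, miR-181b and miR-181d the family member was the brighter arm, but in miR-181c it was the dimmer one. The spots of miR-181c-3p averaged 147.5 ± 19.6 (SD, n = 18 spots), with a lowest spot of 100.2, a median of 148.9 and a highest of 178.1, and all 20 of its spots were well above background. No spot of miR-181c-5p came near this range. The log2 signal of miR-181c-5p minus that of miR-181c-3p was -3.16 (standard error 0.075 from the spots), and the miR-181c-3p total of 54.7 was 8.82 times that of miR-181c-5p. All 4 probes of miR-181c-3p were bright, with means from 136.5 to 172.2. The sequences of this arm are shown beside those of miR-181a, since they are alike while their signals were not.
hsa-miR-181c-3p: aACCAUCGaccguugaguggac
hsa-miR-181a-3p: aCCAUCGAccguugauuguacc
hsa-miR-181a-2-3p: aCCACUGAccguugacuguacc

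miR-181c-3p begins a base earlier than miR-181a-3p in the shared stretch, so their seeds differ, and the whole sequences are 4 single-base changes apart. The spots of miR-181a-3p averaged 11.4 ± 3.06 (SD, n = 20 spots) with 0 spots well above background, and miR-181a-2-3p had 2.10 ± 2.86 (SD, n = 20 spots) and was not detected. The arms opposite miR-181b-5p were also dim. miR-181b-2-3p had a mean of 12.7 ± 3.60 (SD, n = 18 spots), and miR-181b-3p, at 3.51 ± 2.17 (SD, n = 19 spots), was not detected. miR-181d-3p had a mean of 15.4 ± 7.76 (SD, n = 19 spots). Its 2 probes had means of 8.50 and 23.2, and all 9 of its spots well above background were on the brighter one. The total of miR-181d-5p was 13.9 times that of miR-181d-3p, in which only the brighter probe was counted. No such ratio is given for miR-181a-3p, whose brightest probe, at 12.5, was level with the negative controls.

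**Figure D3:**
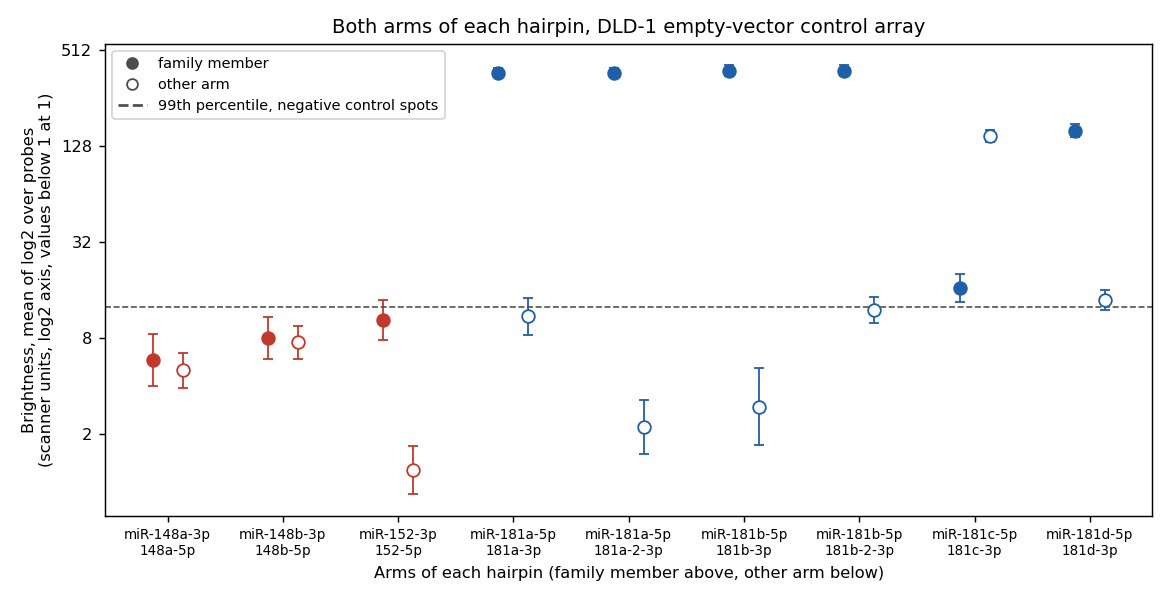
Brightness of both arms for each hairpin of the families (log2 axis, scanner units, mean of log2 values over spots and then probes, values below 1 set to 1), with bars of 1 SD between spots of a probe. Filled points are family members, open points the other arms, and the dashed line is at 12.5, the 99th percentile over negative control spots. miR-181a-5p and miR-181b-5p appear once for each of their 2 loci, and miR-181c is the hairpin in which the open point lies above the filled one.

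To place these ratios, the same comparison was made for every hairpin name with a 5p and a 3p arm on the array, 810 in all, of which 255 had both arms detected. The 3p arm had the higher total in 88 of these (34.5%), the direction seen for miR-181c. The median size of the log2 ratio between arms was 2.31. The log2 ratio of 5p over 3p was -3.14 for miR-181c, whose size was at the 64.7 percentile of the 255 hairpins. With the sign kept, it was at the 9.02 percentile, so few hairpins leaned as far toward 3p. For miR-181d the ratio was 3.80, at the 75.7 percentile of size and the 81.6 percentile with the sign kept. The 255 hairpins needed only the detection flag on both arms. They therefore include arms level with the negative controls, such as miR-181a-3p, which limits these percentiles. The ratio compares different probes and was read here as a description.

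In the miR-148/miR-152 hairpins neither arm was bright. miR-148a-5p carried the detection flag, with a mean brightness of 6.89 ± 6.80 (SD, n = 20 spots), while its partner miR-148a-3p did not. The means of its 4 probes ran from -2.04 to 14.9, and its total of 1.37 came from the brightest alone. miR-148b-5p had a mean of 7.72 ± 1.67 (SD, n = 20 spots) and miR-152-5p of -0.58 ± 2.51 (SD, n = 19 spots), and both were not detected. None of the spots of these 3 arms was well above background, so a direction is not given for any of the 3 hairpins. For miR-152, 20 of 20 spots of the 3p arm were positive and significant, against 1 of 20 of the 5p arm. The brightest negative control probe had this flag on 88 of its 100 spots. The log2 signal of miR-152-3p was 3.13 higher (standard error 0.18 from the spots), with 15 of the 19 miR-152-5p spots set to the floor of 1.

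A single further human miRNA on the array, miR-4262, has the miR-181 seed, and none other has the seed of miR-148/miR-152. Of the 2549 human miRNAs, 2248 could be matched by name to a RefSeq sequence for this search.
hsa-miR-4262: gACAUUCAgacuaccug
Beyond the seed it shares little with the family, being 10 to 12 single-base changes away from its members. miR-4262 was not detected, with a mean brightness of 9.97 ± 3.37 (SD, n = 20 spots) and 0 spots well above background. Thus miR-181a-5p, miR-181b-5p and miR-181d-5p carried the bright signal among the miRNAs with this seed.

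In the authors' normalized table of the same array, on a log2 scale, the order of the miR-181 members was the same, with 6.95 for miR-181b-5p, 6.89 for miR-181a-5p, 5.51 for miR-181d-5p and 2.52 for miR-181c-5p. miR-181c-3p had 5.41. miR-148b-3p and miR-152-3p both had 2.33, a value shared by 183 human miRNAs with total signals up to 5.00, and miR-148a-3p had 2.32, the lowest value, shared by the 1101 miRNAs not detected. The deposited values therefore hold no order among the miR-148/miR-152 members beyond the detection flag.

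As a check of the labelled cell line, epithelial and other tissue miRNAs were read from the same array. miR-141-3p and miR-200c-3p, which mark epithelium, had mean brightness 3024 ± 401 (SD, n = 20 spots) and 85.3 ± 29.8 (SD, n = 17 spots), whereas miR-192-5p, typical of intestine, was not detected at 5.46 ± 2.56 (SD, n = 20 spots). Of the markers of other tissues, miR-122-5p of liver, miR-1-3p of muscle and miR-451a of red cells were not detected, with mean brightness -1.41, -1.19 and 0.914. miR-223-3p of myeloid cells was detected at 16.5 ± 2.46 (SD, n = 20 spots), 5 of its 20 spots being well above background. miR-124-3p, known from neurons, had 77.2 ± 19.4 (SD, n = 20 spots) with all 20 spots well above background. Its source was not tested.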

How the data were processed

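The control array is a 1-colour Agilent miRNA array, for which the labels describe ligation of Cyanine 3-pCp to RNA and the methods labelled cDNA. The deposited intensity of each spot was read by Agilent Feature Extraction 11.0.1.1, which subtracted local background and set the flags and total signals used here, and 0 spots were saturated. The authors also deposited log2 values, quantile normalized in GeneSpring GX per the methods. The arrays normalized with it are not named in the sources used here.

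Of 53144 spots, 50980 measured human miRNAs. Spots marked as outliers (4.06%) were dropped. Brightness was floored at 1 before log2, then averaged over spots and over probes. All 1000 negative control spots were used. Standard errors come from spots, which are technical repeats, and the single array limits the precision. miRNAs were named by family membership, hairpin and seed. Members and lists were chosen with earlier results of these data known. Alternatives covered detection, background level and margin, normexp (limma 3.58.1, R 4.3.3, offset 50, on median spot signals), scaling, outlier spots and probe summary. The calculations (Python 3.11.15, pandas 2.3.3, numpy 2.4.6) were tested on simulated data.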

Additional observations from a re-analysis of the deposited data

How the results depend on the processing

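The count of 6 detected members became 3 where a probe needed at least 0.5 of its spots, or every spot, well above background, and 7 where 0.5 had to be positive and significant. The 5 opposite arms detected became 2, 2 and 8 in the same order, and miR-4262 passed only the last criterion (1 of 1). The negative control probe of highest median would also meet that last criterion, with 88 of its 100 spots positive and significant. For the 2 criteria not used above, the share of all human miRNAs is not given, so those counts are not set against the array. The 3 members above the negative controls became 6 without the negative control probe of highest median, and stayed at 3 with the lowest probe well above background as the level, a 4-fold margin, normexp correction or outlier spots kept. The share of all human miRNAs under these alternatives is not given either, so these counts are not set against the array. With normexp, where the added offset of 50 narrows ratios, the gap within miR-181 was 2.51 and within miR-148/miR-152 0.087. By the brightest probe alone the gaps were 4.69, now between miR-181a-5p and miR-181c-5p, and 1.14, now between miR-148b-3p and miR-148a-3p. For miR-181 the gap was 4.50 by total signal and 4.43 by deposited values, and with outlier spots kept both gaps stayed at 4.52 and 0.84. For miR-148/miR-152 the total and deposited values give no gap, since miR-148a-3p was not detected. The number of members whose probes differ was 3 at 4 standard errors and 4 under the other settings. Scaled signals kept their sign under every alternative run, except that miR-181d-5p was at 1.16 with the percentile over all probes. For these changes the cause was not tested, and no other normexp offset was run. No paired analysis was possible because a single array was analysed.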
